A study of Mus musculus with 12 samples.

Results

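The genes described here encode the proteins that license replication origins and build the replication fork: 41 genes chosen by the function of their products, out of 43629 genes in the count table. They are the MCM2-7 helicase, the origin recognition complex, the licensing factors Cdc6 and Cdt1 with the inhibitor Gmnn, the origin firing factors, the GINS complex, the DNA polymerases with primase, the sliding clamp and its loader, the Okazaki fragment enzymes, and the histone mRNA binding protein gene Slbp. All 41 genes were among the 13944 that passed the filter on low counts. The 12 RNA-seq libraries were made from pre-T cells sorted from C57BL/6 mouse thymus and fall into 3 groups of 4. DCKO libraries, labelled DN3, came from mice with genotype Zfp36l1fl/fl, Zfp36l2fl/fl, CD2cre, where Cre expressed under CD2 control recombines the floxed alleles in lymphoid cells. Zfp36l1 and Zfp36l2 encode RNA-binding proteins that bind AU-rich elements and promote mRNA decay. Control DN3b and control DN3a libraries came from Zfp36l1fl/fl, Zfp36l2fl/fl mice without the Cre, so the floxed alleles were common to all groups, while Cre was present in the DCKO group alone. The labels give neither age nor whether a library came from 1 mouse or from pooled mice. DN3a cells are the earlier double-negative thymocytes that have yet to pass beta-selection, and DN3b cells are those that have passed it, so DN3b against DN3a compares both sides of that checkpoint, and DCKO DN3 cells were set against each. The label of the DCKO libraries does not divide DN3 into DN3a and DN3b. In comparisons with DCKO, genotype, Cre and the mix of DN3 stages therefore cannot be told apart.

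Licensing happens once per cycle. The origin recognition complex, CDC6 and CDT1 load the MCM2-7 ring onto DNA in G1, and geminin, the product of Gmnn, blocks CDT1 after S phase has begun. The kinase CDC7 with its activator DBF4 then helps CDC45 and GINS join MCM2-7, and MCM10 helps to activate the loaded helicase. Polymerase alpha with primase starts each strand, polymerases epsilon and delta extend it on the clamp PCNA, and FEN1 and LIG1 join the lagging-strand pieces. Many of these genes are textbook targets of E2F transcription factors, and thymocytes that pass beta-selection divide rapidly.

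Promoter windows, from 250 bases before to 50 after a RefSeq transcript start on mouse build GRCm38.p6, were available for 33 of the 41 genes. The letters TTTCCCGC, TTTGGCGC, TTTGGCGG and TTTCCCGG, forms of the E2F motif, were searched on both strands; TTTGGCGC and TTTGGCGG share all but the last base, and a stretch may match on both strands. One of them stood in a promoter of 16 of the 33 genes (48.5%), against 3.79% of the 27025 genes in the promoter table and 6.92% of the 9779 tested genes in it. The CCAAT box stood in 57.6% of the 33 genes, against 41.1% of genes in the table and 43.3% of the tested genes. A match describes the letters of a window and is not evidence of binding. Mcm3, Mcm6 and Cdc6 are shown as genes that rose in control DN3b over control DN3a, and Orc3 and Orc5 as origin recognition genes that did not pass that test; E2F letters are in capitals, on either strand.
Mcm3, chr1:20820263-20820562, minus strand: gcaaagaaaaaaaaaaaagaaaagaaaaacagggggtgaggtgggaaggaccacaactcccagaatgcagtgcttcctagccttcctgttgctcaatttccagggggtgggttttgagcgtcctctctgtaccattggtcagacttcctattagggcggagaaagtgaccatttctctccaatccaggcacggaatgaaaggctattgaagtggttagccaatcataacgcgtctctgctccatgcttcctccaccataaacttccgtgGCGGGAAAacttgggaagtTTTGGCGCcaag
Mcm6, chr1:128359656-128359955, minus strand: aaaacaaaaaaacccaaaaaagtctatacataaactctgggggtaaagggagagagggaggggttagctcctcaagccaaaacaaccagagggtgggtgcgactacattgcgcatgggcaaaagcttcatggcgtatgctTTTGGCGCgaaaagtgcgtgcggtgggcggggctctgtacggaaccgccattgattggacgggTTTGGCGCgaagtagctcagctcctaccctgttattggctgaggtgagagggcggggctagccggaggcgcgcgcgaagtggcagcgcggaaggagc
Cdc6, chr11:98907901-98908200, plus strand: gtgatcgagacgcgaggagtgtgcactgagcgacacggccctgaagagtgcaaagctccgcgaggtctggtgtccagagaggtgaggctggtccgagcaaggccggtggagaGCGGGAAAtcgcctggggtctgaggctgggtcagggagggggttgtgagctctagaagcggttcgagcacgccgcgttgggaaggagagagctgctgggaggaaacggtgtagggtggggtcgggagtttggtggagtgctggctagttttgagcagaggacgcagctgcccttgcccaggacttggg
Orc3, chr4:34614893-34615192, minus strand: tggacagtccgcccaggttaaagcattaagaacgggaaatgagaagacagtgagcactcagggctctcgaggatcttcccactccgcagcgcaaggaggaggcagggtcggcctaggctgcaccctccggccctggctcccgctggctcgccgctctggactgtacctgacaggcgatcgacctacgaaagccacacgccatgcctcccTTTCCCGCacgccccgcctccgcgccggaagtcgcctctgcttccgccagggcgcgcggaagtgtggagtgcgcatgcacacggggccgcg
Orc5, chr5:22550289-22550588, minus strand: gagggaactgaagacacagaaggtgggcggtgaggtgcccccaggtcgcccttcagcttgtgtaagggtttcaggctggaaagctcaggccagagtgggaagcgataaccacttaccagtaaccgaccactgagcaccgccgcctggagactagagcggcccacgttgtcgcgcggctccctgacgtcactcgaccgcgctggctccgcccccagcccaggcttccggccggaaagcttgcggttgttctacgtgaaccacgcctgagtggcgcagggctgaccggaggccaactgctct
Mcm3 and Mcm6 each held 2 matches and Cdc6 held 1, while Orc3 held 1 as well and Orc5 held 0. Among genes with a window, Mcm5, Mcm7, Orc4, Cdt1, Gins3, Pola1, Pola2, Pold1, Pold3, Pole2, Rfc3 and Lig1 also held E2F letters. The letters were not found in the windows of Mcm2, Orc1, Orc2, Orc6, Cdc7, Dbf4, Cdc45, Mcm10, Prim1, Pold2, Pcna, Rfc1, Rfc4, Rfc5, Fen1 and Slbp. Windows with the letters thus included Orc3 and Orc4, and windows without them Orc5, the genes that did not pass between control DN3b and control DN3a. The window of Cdc6 is set on a RefSeq transcript start 350 bases downstream of the gene start in GENCODE, so it lies inside the annotated gene. The matches of Mcm7, Orc4 and Lig1 also stood in windows inside the gene, set on starts 539, 1010 and 1543 bases from the GENCODE start. The windows nearer that start, at 43 and 196 bases for Orc4 and 108 bases for Lig1, held 0 matches.

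The deleted genes were checked first. Zfp36l1 had 1.65, 1.64, 2.25 and 3.80 CPM (counts scaled to library size, after TMM normalisation) in DCKO libraries 1 to 4, against 23.3, 12.1, 12.1 and 9.63 CPM in control DN3b and 43.9, 33.2, 27.1 and 31.6 CPM in control DN3a. Zfp36l2 had 45.4, 49.3, 87.9 and 72.9 CPM in DCKO, against 287, 320, 382 and 467 CPM in control DN3b and 341, 555, 585 and 685 CPM in control DN3a. Both were lower in every DCKO library than in any control library. Libraries held 28479157 to 45975678 counts, and all 11 T-lineage marker genes were measured, summing to 7780 to 12800 CPM in DCKO, 5120 to 6430 CPM in control DN3b and 6940 to 8940 CPM in control DN3a. In DCKO library 1, a single gene without a symbol (ENSMUSG00000045999) took 9.02% of counts. Of the markers of other cells, 6 B cell genes summed to 18.7 to 24.7 CPM in DCKO, 9.76 to 32.1 CPM in control DN3b and 42.7 to 58.4 CPM in control DN3a, and 7 thymic stroma genes to 114 to 194, 102 to 196 and 256 to 308 CPM in the same groups. Likewise 7 myeloid genes summed to 8.52 to 20.3 CPM in DCKO, 1.46 to 10.3 CPM in control DN3b and 19.9 to 32.1 CPM in control DN3a, and 5 cytotoxic lymphocyte genes to 18 to 29.5, 6.42 to 27.7 and 54.7 to 58 CPM in the same groups. These 4 lists reached their highest sums in control DN3a, the myeloid list with some overlap with DCKO, as did 5 genes of CD4 CD8 double positive thymocytes, at 599 to 739 CPM in DCKO, 455 to 701 CPM in control DN3b and 760 to 974 CPM in control DN3a. Dendritic cell genes (6) reached their highest sum in DCKO, at 111 to 142 CPM, with some overlap with control DN3b at 52.2 to 114 CPM. Control DN3a lay at 62.9 to 97.4 CPM. Gamma-delta T cell genes (3 of 4 in the table) and erythroid genes (5) overlapped between the groups, the gamma-delta list at 42.4 to 125 CPM in DCKO, 46.6 to 74.2 CPM in control DN3b and 66.3 to 84.4 CPM in control DN3a, and the erythroid list at 3.42 to 15.8, 2.64 to 27.3 and 7.16 to 23.7 CPM. No gene of these lists in the table was at 0 in all libraries, and the part of these cells in the results was not tested. The filter on low counts was passed by 1 of 6 B cell, 1 of 5 cytotoxic, 3 of 6 dendritic and 4 of 7 myeloid genes. Those sums can therefore rest on few genes. No pair of replicates was alike within counting noise.

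Relative to control DN3a, nearly the whole replication machinery was higher both in DCKO cells and in control DN3b cells. In DCKO against control DN3a, 40 of the 41 genes rose and 0 fell, where 60.2% of all tested genes were called, 30.7% higher and 29.5% lower (edgeR quasi-likelihood test, Benjamini-Hochberg adjusted p under 0.05); the exception was Orc5. Their median log2 fold change was 1.31, a 2.48-fold level, against -0.04 over all tested genes, and 30 rose by 2-fold or more. In control DN3b against control DN3a, 38 of 41 rose and 0 fell, where 52.6% of all tested genes were called, 27.4% higher and 25.2% lower. The exceptions were Orc3, Orc4 and Orc5, in a fit that leaves out the pairing of same-numbered control libraries. With the replicate number as a block, Orc5 also rose (log2 0.24, edgeR adjusted p = 0.0225), and Orc3 and Orc4 did not pass. With a GC correction, chosen after the data had been seen, Orc3 (log2 0.205, adjusted p = 0.0388) and Orc5 (0.35, adjusted p = 0.00494) rose. Orc4 rose with the GC correction and the block together (0.208, adjusted p = 0.0216), but not with the GC correction alone (0.214, adjusted p = 0.0781). The median log2 fold change of the 41 genes in the main fit was 1.29, a 2.45-fold level, and 31 rose by 2-fold or more. Every DCKO library lay above every control DN3a library for 38 genes and below for 0 (27.8% and 27.1% of all tested genes), and every control DN3b library above every control DN3a library for 38 genes and below for 0 (24.8% and 23%). The comparisons share the DN3a libraries, and their values are set side by side without a test of likeness. In RNA from sorted populations, fewer cells in cycle and less RNA per cell cannot be told apart. The 41 genes together took 0.868% to 0.958% of all counts in DCKO, 0.779% to 1.09% in control DN3b and 0.394% to 0.547% in control DN3a.

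**Figure D1:**
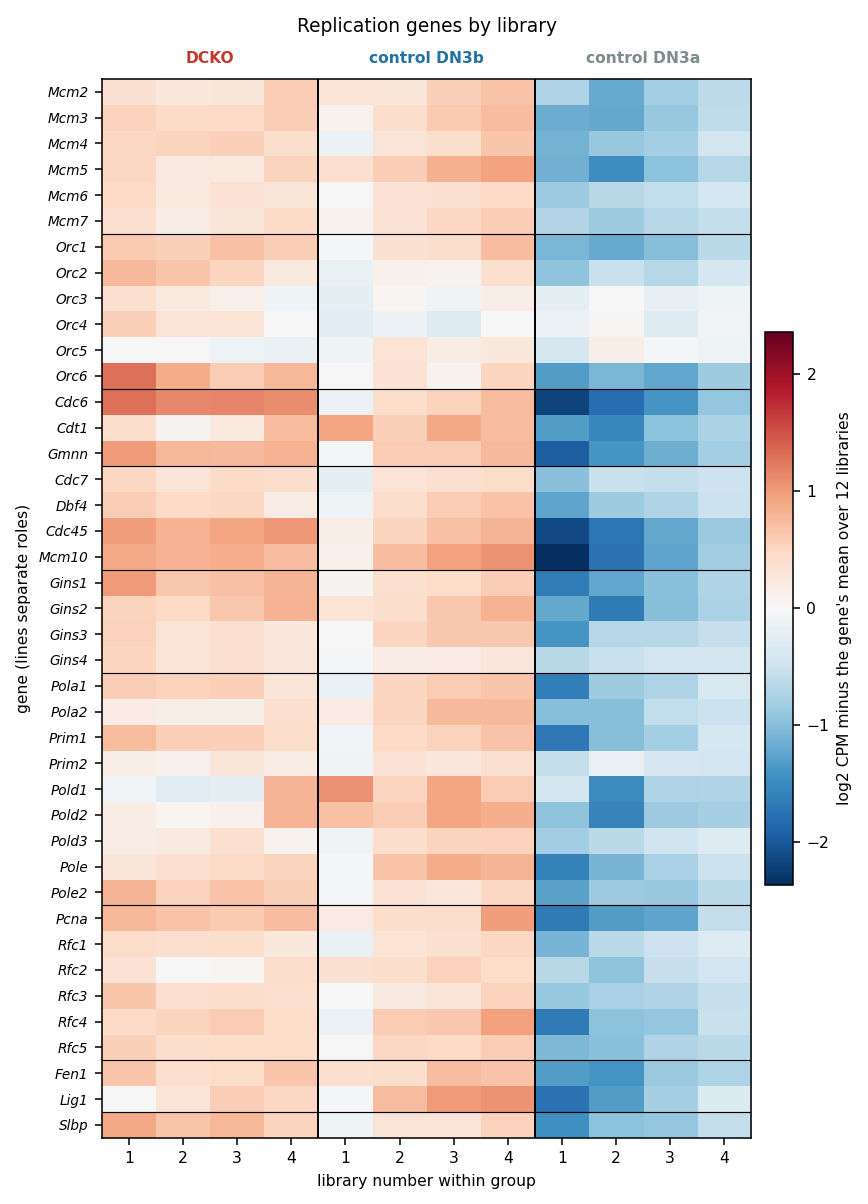
Level of each of the 41 replication genes in the 12 libraries, as log2 CPM minus the gene's mean over all libraries (colour), with genes in rows grouped by role and libraries in columns. Control DN3a libraries are below the mean for nearly every gene, while the rows of Orc3, Orc4 and Orc5 stay pale across all 3 groups.

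**Figure D2:**
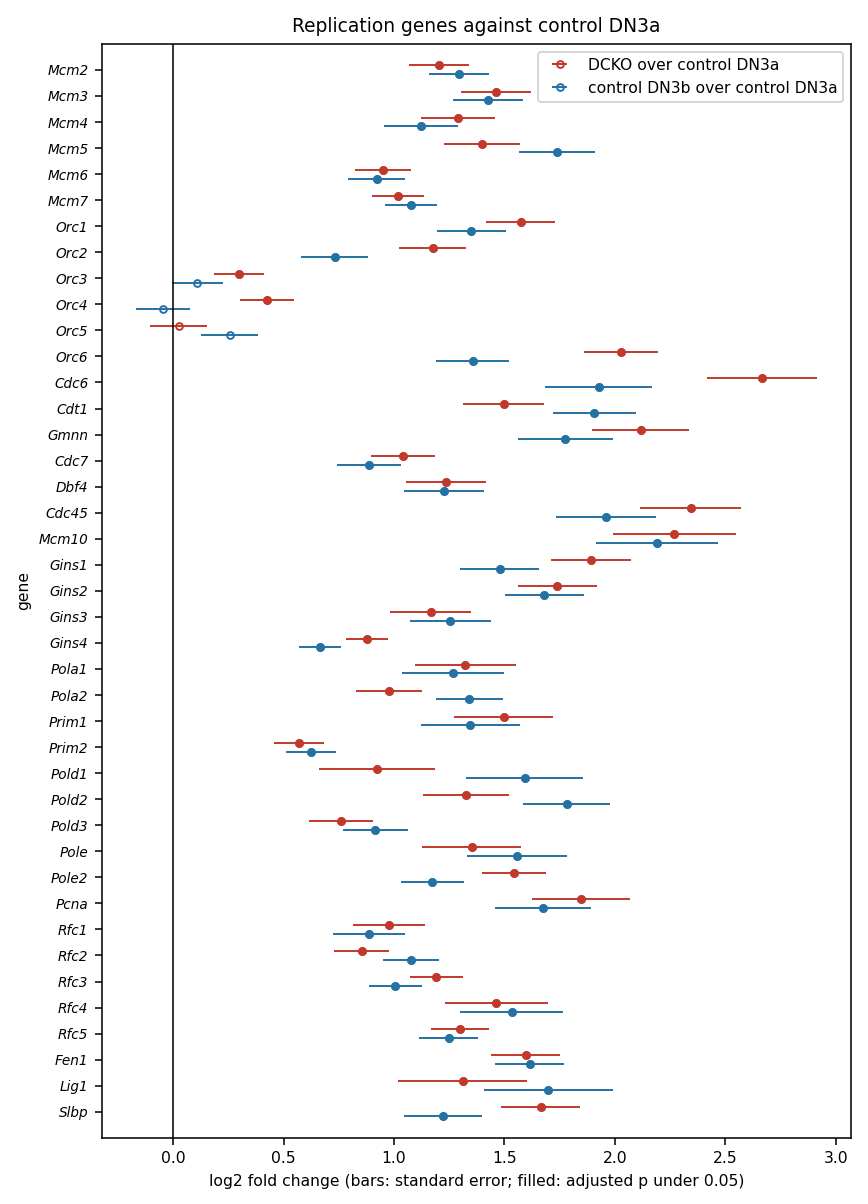
Log2 fold change of each gene against control DN3a, for DCKO (red) and control DN3b (blue), with standard errors as bars and filled points for adjusted p under 0.05. The fit leaves out the pairing of the control libraries. The values range from 0.03 (Orc5) to 2.66 (Cdc6) in DCKO and from -0.05 (Orc4) to 2.19 (Mcm10) in control DN3b.

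DCKO and control DN3b cells differed at few of these genes. Here too, genotype and the mix of DN3 stages cannot be told apart. Only Cdc6, Orc6 and Orc4 rose in DCKO cells (3 of 41) and 0 fell, where 18.9% of all tested genes were called, 10.3% higher and 8.58% lower; the 7.32% of replication genes that rose lay near that background. The median log2 fold change of the 41 was 0.06, against -0.02 over all tested genes, and 25 values were positive and 16 negative. Before adjustment, 12 genes had p under 0.05: 8 higher in DCKO (Orc2, Orc4, Orc6, Cdc6, Gins1, Gins4, Pole2 and Slbp) and 4 lower (Cdt1, Pola2, Pold1 and Pold2). They were 29.3% of the 41, against 33.8% of all tested genes with such a p. DESeq2 and limma-voom also called 0 of the 41 lower. Of the 38 genes that did not pass, 36 had a 95% interval within a 2-fold difference in either direction, the exceptions being Pold1 (log2 -1.23 to -0.11) and Lig1 (-1.01 to 0.23). Only 22 of the 38 had an interval within a log2 of 0.58 in either direction, so smaller differences remain possible for the rest. DCKO libraries lay above every control DN3b library for 5 genes (Orc6, Cdc6, Cdc45, Gins1 and Pole2; 11% of all tested genes), and for 0 genes below (9.87%). In the authors' deposited table for this comparison, Orc2, Orc4, Orc6, Cdc6, Gins1 and Slbp were higher and Pold1 lower at adjusted p under 0.05.

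**Figure D3:**
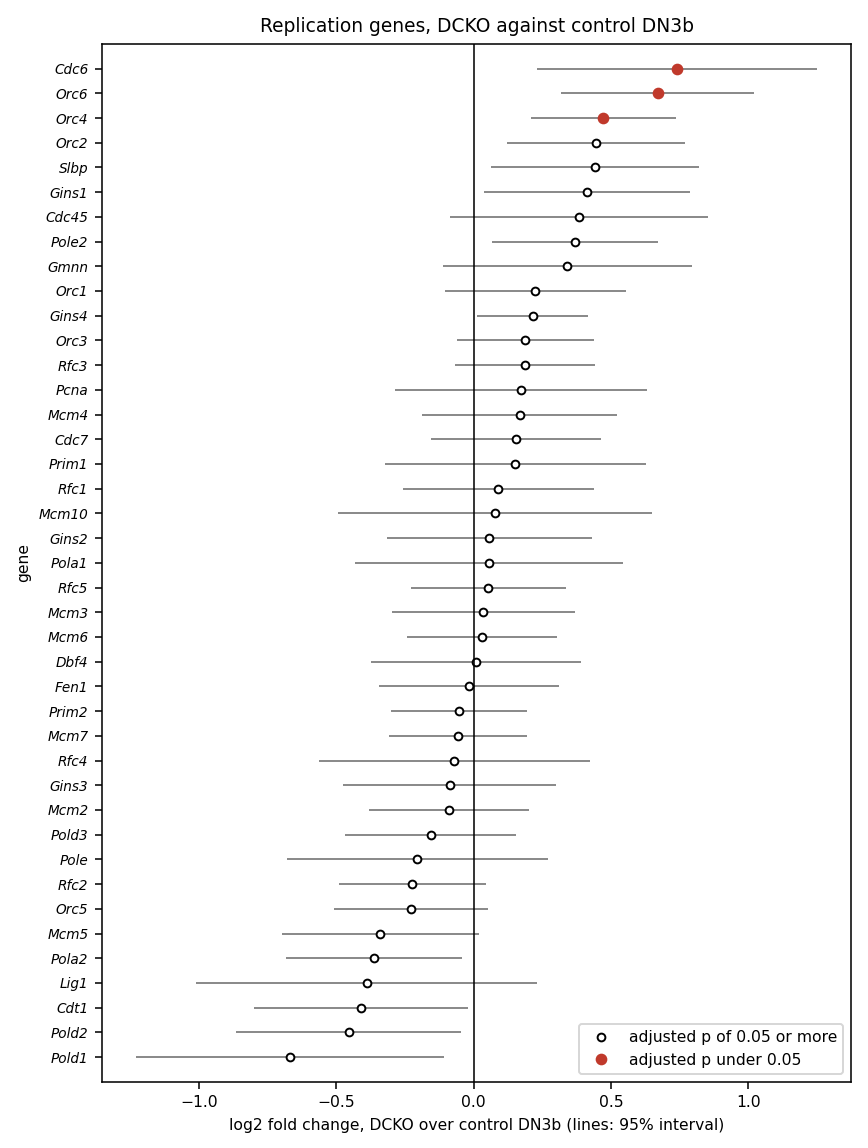
Log2 fold change of each gene in DCKO over control DN3b with its 95% interval, ordered by value, with filled points for adjusted p under 0.05. Cdc6, Orc6 and Orc4 lie highest and Pold1 lowest, at -0.67.

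Among the origin recognition genes, whose products mark where replication can start, the subunits split in the main fit. Orc6 had 204, 153, 125 and 143 CPM in DCKO libraries 1 to 4, against 82.7, 105, 87.9 and 118 CPM in control DN3b and 33.0, 39.1, 35.2 and 46.1 CPM in control DN3a. The 3 groups were in separate ranges, with DCKO highest. Orc6 (ENSMUSG00000031697, chr8:85299632-85308278, plus strand) rose by a log2 of 0.67 ± 0.16 (SE) in DCKO over control DN3b (edgeR adjusted p = 0.0126), by 2.03 ± 0.17 over control DN3a (adjusted p = 3.1e-06), and by 1.36 ± 0.17 in control DN3b over control DN3a (adjusted p = 5.8e-05). Without DCKO library 1, the highest, the DCKO difference from control DN3b was 0.49 (adjusted p = 0.0512), and without control DN3b library 3 it was 0.59 (adjusted p = 0.0544).

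In the main fit, Orc4 (ENSMUSG00000026761, chr2:48902824-48950277, minus strand) did not follow the change of stage. Its level was 136, 114, 115 and 91.0 CPM in DCKO, against 77.2, 83.5, 74.8 and 92.5 CPM in control DN3b and 83.4, 93.3, 74.3 and 87.7 CPM in control DN3a. The control groups covered the same range, and DCKO library 4 lay within it while the other DCKO libraries lay above. The log2 fold change was 0.47 ± 0.12 in DCKO over control DN3b (edgeR adjusted p = 0.0176), 0.43 ± 0.12 over control DN3a (adjusted p = 0.0088), and -0.05 ± 0.12 in control DN3b over control DN3a (adjusted p = 0.77). Against control DN3b the call was lost without any 1 of DCKO libraries 1, 2 or 3 (adjusted p = 0.0706, 0.0525 and 0.0507), without control DN3b library 2 or 3 (0.0528 and 0.073), and after a correction for GC content, where the log2 fold change was 0.26 (adjusted p = 0.0856). Against control DN3a the call held in 21 of 24 alternatives. It was lost with upper quartile scaling (log2 0.20, adjusted p = 0.164), with a stricter filter on low counts (0.29, adjusted p = 0.0504) and without DCKO libraries 1 and 2 together (0.26, adjusted p = 0.146).

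Orc3 had 172, 157, 145 and 125 CPM in DCKO, against 113, 138, 125 and 149 CPM in control DN3b and 113, 133, 117 and 125 CPM in control DN3a. All 3 groups overlapped. Orc3 rose in DCKO over control DN3a by a log2 of 0.30 ± 0.12 (edgeR adjusted p = 0.039), a call that was lost in 16 of 24 alternatives, among them the removal of any 1 of DCKO libraries 1, 2 or 3 (adjusted p = 0.175, 0.125 and 0.0797) and of any 1 of control DN3a libraries 1, 3 or 4 (0.100, 0.0914 and 0.0559) and control DN3b libraries 2 or 3 (0.0757 and 0.0734). Orc5 had 26.5, 26.5, 24.1 and 23.5 CPM in DCKO, against 24.6, 32.7, 29.8 and 31.0 CPM in control DN3b and 19.9, 29.1, 25.4 and 24.3 CPM in control DN3a. Its log2 fold changes were -0.23 ± 0.13 in DCKO over control DN3b, 0.03 ± 0.13 in DCKO over control DN3a and 0.26 ± 0.13 in control DN3b over control DN3a, none past the threshold. With the replicate number as a block, which pairs the control libraries, Orc5 was higher in control DN3b than in control DN3a by a log2 of 0.24 (edgeR adjusted p = 0.0225), as it was without control DN3b library 1 (0.34, adjusted p = 0.0378) or control DN3a library 2 (0.35, adjusted p = 0.0472).

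Orc1 and Orc2 behaved more like Orc6: Orc1 averaged 61.3 ± 2.63 CPM in DCKO, 52.5 ± 11.3 CPM in control DN3b and 20.6 ± 3.56 CPM in control DN3a (SD, n = 4 each), and Orc2 averaged 169 ± 26.0, 124 ± 19.4 and 74.9 ± 12.1 CPM in the same groups. Both rose in DCKO and in control DN3b over control DN3a. Orc2 in DCKO over control DN3b had a log2 fold change of 0.45 ± 0.15 that just missed the threshold (edgeR adjusted p = 0.0547). Per kilobase of exon, Orc6 was the most abundant subunit in DCKO (63.3 CPM per kb) and in control DN3b (39.8 CPM per kb), whereas Orc3 was the most abundant in control DN3a (20.0 CPM per kb), and Orc5 was the least abundant in all 3 groups (4.08, 4.79 and 4.00 CPM per kb in DCKO, control DN3b and control DN3a). The ratio of highest to lowest subunit was thus 15.5 in DCKO, 8.32 in control DN3b and 4.99 in control DN3a. These values rest on merged exon lengths, 6166 bases for Orc5, which can overstate the length of the main transcript. Before scaling by length, Orc1 averaged 20.6 CPM and Orc5 24.7 CPM in control DN3a, so the rank of Orc5 there depends on the lengths used.

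Cdc6, the ATPase that joins the origin recognition complex to load MCM2-7, had the highest fold change of the 41 genes in DCKO over control DN3a and in DCKO over control DN3b. Cdc6 (ENSMUSG00000017499, chr11:98907801-98923940, plus strand) had 419, 371, 375 and 366 CPM in DCKO, against 155, 229, 248 and 286 CPM in control DN3b and 37.1, 48.99, 65.0 and 90.5 CPM in control DN3a. The 3 groups did not overlap. The DCKO level was 6.34-fold that of control DN3a (log2 2.66 ± 0.25, edgeR adjusted p = 5.5e-06), the control DN3b level was 3.80-fold that of control DN3a (log2 1.93 ± 0.24, adjusted p = 7.1e-05), and DCKO exceeded control DN3b by a log2 of 0.74 ± 0.24 (adjusted p = 0.0447). This last call was close to the threshold. It was lost when any 1 of the 4 DCKO libraries (adjusted p = 0.118, 0.0916, 0.09 and 0.0547 without libraries 1 to 4), any 1 of control DN3b libraries 1 to 3 (0.0982, 0.102 and 0.0896) or control DN3a library 3 (0.0611) was left out, and with upper quartile scaling (0.0589), while the log2 fold change ran from 0.59 to 0.84 over the fits without 1 library.

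Gmnn and Cdt1, the inhibitor and its target, moved with the stage as well. Gmnn had 130, 112, 110 and 114 CPM in DCKO, against 62.5, 97.5, 97.9 and 110 CPM in control DN3b and 16.9, 24.7, 28.9 and 37.1 CPM in control DN3a. DCKO and control DN3b overlapped at about 110 CPM, and both lay above control DN3a. Gmnn rose 4.34-fold in DCKO and 3.42-fold in control DN3b over control DN3a (edgeR adjusted p = 9.2e-06 and 5.9e-05), with a log2 fold change of 0.34 ± 0.21 in DCKO over control DN3b (adjusted p = 0.275). Cdt1 had 92.5, 72.5, 81.4 and 117 CPM in DCKO, against 133, 103, 132 and 115 CPM in control DN3b and 27.7, 23.9, 35.5 and 41.7 CPM in control DN3a. Cdt1 rose 2.82-fold in DCKO and 3.75-fold in control DN3b over control DN3a (adjusted p = 2.9e-05 and 2.8e-05), and its log2 fold change in DCKO over control DN3b was -0.41 ± 0.18 (adjusted p = 0.129). Without DCKO library 4, the highest of its group for Cdt1, this value was -0.56 (adjusted p = 0.0429), and with a correction for GC content it was -0.08 (adjusted p = 0.798).

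The log2 level of Gmnn minus that of Cdt1 was 0.49, 0.63, 0.44 and -0.03 in DCKO libraries 1 to 4, against -1.09, -0.08, -0.43 and -0.06 in control DN3b and -0.72, 0.05, -0.30 and -0.17 in control DN3a. DCKO libraries lay above every control DN3b library, and DCKO library 4 fell within the control DN3a range. The difference of means between DCKO and control DN3b was 0.80, with an exact two-sided permutation p of 0.0286, the smallest that 4 against 4 libraries allow, and a Benjamini-Hochberg adjusted value of 0.0856 over the 3 comparisons. Between DCKO and control DN3a it was 0.67 (exact permutation p = 0.0571, adjusted 0.0856), and between control DN3b and control DN3a -0.13 (exact permutation p = 0.629). The test between the control groups leaves out the pairing of same-numbered libraries. The GC content of the Cdt1 transcript was 58.8% and that of Gmnn 49.8%. With the GC correction the log2 fold changes of DCKO over control DN3b were 0.34 for Gmnn and -0.08 for Cdt1, so the Cdt1 part of this difference was smaller; the per-library difference itself was not corrected.

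**Figure D4:**
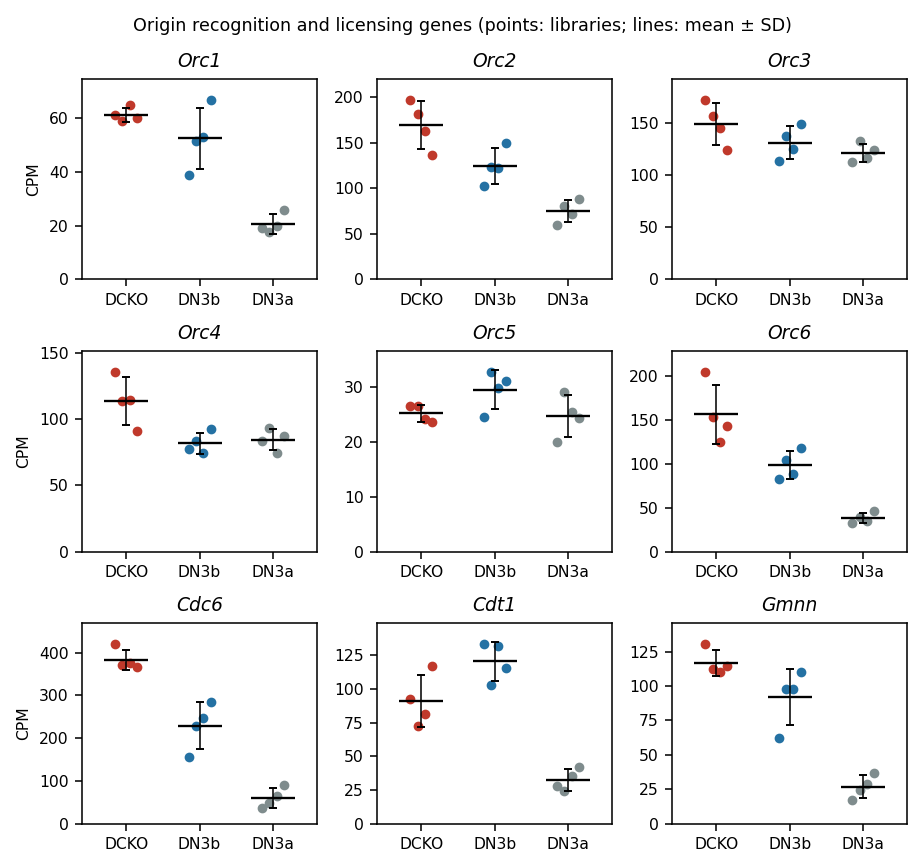
CPM of the 6 origin recognition genes and of Cdc6, Cdt1 and Gmnn in each library (points), with group means (lines) and SD (bars), DCKO on the left, then control DN3b and control DN3a; each panel has its own axis from 0. Orc6 and Cdc6 separate all 3 groups, while Orc3, Orc4 and Orc5 overlap between the control groups.

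All 6 subunit genes of the MCM2-7 helicase, the ring that unwinds DNA at the fork, rose over control DN3a, by 1.93-fold (Mcm6) to 2.75-fold (Mcm3) in DCKO and by 1.89-fold (Mcm6) to 3.33-fold (Mcm5) in control DN3b. Mcm5 had 595, 494, 501 and 610 CPM in DCKO, against 564, 640, 761 and 820 CPM in control DN3b and 194, 154, 219 and 269 CPM in control DN3a. DCKO and control DN3b overlapped, and both were above control DN3a. Mcm6 had 1316, 1110, 1199 and 1153 CPM in DCKO, against 947, 1194, 1220 and 1321 CPM in control DN3b and 520, 604, 635 and 714 CPM in control DN3a. The DCKO libraries lay within the range of control DN3b. None of the 6 passed the test between DCKO and control DN3b, where log2 fold changes ran from -0.34 ± 0.17 for Mcm5 (edgeR adjusted p = 0.17) to 0.17 ± 0.17 for Mcm4 (adjusted p = 0.512). Mcm2, Mcm3, Mcm4 and Mcm7 averaged 496 to 713 CPM in DCKO, 528 to 743 CPM in control DN3b and 211 to 352 CPM in control DN3a. Per kilobase, Mcm6 was the most and Mcm2 the least abundant subunit in each group, at 256 and 71.3 CPM per kb in DCKO, 251 and 75.9 in control DN3b, and 132 and 31.0 in control DN3a, with merged exon lengths that can overstate the length of the main transcript. Mcm7 shares exon sequence with Cops6 and Ap4m1 on the opposite strand and holds the microRNA genes Mir25 and Mir93.

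The 4 origin firing genes rose in both comparisons. Mcm10, which helps to activate the loaded helicase, had 203, 193, 199 and 182 CPM in DCKO, against 118, 181, 210 and 226 CPM in control DN3b and 21.2, 32.7, 45.9 and 61.4 CPM in control DN3a. The wide control DN3b range held all the DCKO libraries. Mcm10 rose 4.82-fold in DCKO and 4.57-fold in control DN3b over control DN3a (edgeR adjusted p = 2.6e-05 and 7.1e-05). Cdc7, the kinase that fires origins, had 146, 128, 142 and 138 CPM in DCKO, against 89.8, 131, 137 and 141 CPM in control DN3b and 52.6, 72.7, 70.4 and 74.0 CPM in control DN3a. Control DN3a library 1 stood below the other control DN3a libraries. Cdc7 rose 2.06-fold in DCKO and 1.85-fold in control DN3b over control DN3a (adjusted p = 6.4e-05 and 0.00033), less than any other firing gene. Cdc45, a part of the active helicase, averaged 177 ± 9.90 CPM in DCKO, 136 ± 25.0 CPM in control DN3b and 34.8 ± 12.8 CPM in control DN3a, and Dbf4, the activator of CDC7, averaged 127 ± 14.3, 126 ± 27.98 and 53.9 ± 11.1 CPM in the same groups (SD, n = 4 each). Cdc45 was higher in every DCKO library than in any control DN3b library, but its log2 fold change of 0.38 ± 0.22 did not pass the test (adjusted p = 0.237).

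The GINS genes, whose products complete the active helicase, rose unevenly. Gins2 had 51.9, 50.1, 56.2 and 63.6 CPM in DCKO, against 44.96, 48.1, 56.3 and 63.9 CPM in control DN3b and 15.7, 11.4, 17.9 and 21.5 CPM in control DN3a. Gins4 had 89.1, 77.7, 81.3 and 75.7 CPM in DCKO, against 61.2, 70.6, 71.6 and 75.7 CPM in control DN3b and 39.9, 43.8, 45.8 and 46.7 CPM in control DN3a. For both genes DCKO and control DN3b met or overlapped, well above control DN3a. Gins2 rose 3.33-fold in DCKO and 3.21-fold in control DN3b over control DN3a (edgeR adjusted p = 9.1e-06 and 3.6e-05), and Gins4 rose 1.84-fold and 1.58-fold in the same comparisons (adjusted p = 1.1e-05 and 0.00014). Gins1 rose 3.71-fold in DCKO and 2.79-fold in control DN3b, and Gins3 2.25-fold and 2.39-fold. In DCKO over control DN3b none passed, the highest being Gins1 at a log2 of 0.41 ± 0.17 (adjusted p = 0.117). Of the 4097 exonic bases of Gins2, 2758 overlap Gse1 on the opposite strand.

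All 9 polymerase and primase genes rose over control DN3a, by 1.49-fold (Prim2) to 2.91-fold (Pole2) in DCKO and by 1.54-fold (Prim2) to 3.44-fold (Pold2) in control DN3b. Prim2, the large primase subunit, had 105, 101, 115 and 107 CPM in DCKO, against 89.0, 120, 113 and 123 CPM in control DN3b and 64.1, 83.9, 71.7 and 69.1 CPM in control DN3a. Pold2, an accessory subunit of polymerase delta, had 66.4, 61.4, 63.3 and 103 CPM in DCKO, against 95.2, 88.6, 113 and 107 CPM in control DN3b and 30.5, 19.8, 32.5 and 34.5 CPM in control DN3a. DCKO library 4 was in the control DN3b range for Pold2, and the other DCKO libraries were below it. Pold1, the catalytic subunit of polymerase delta, had the same high DCKO library 4, with 110, 95.2, 99.7 and 200 CPM in DCKO against 244, 163, 221 and 174 CPM in control DN3b. The log2 fold changes of DCKO over control DN3b, -0.67 ± 0.26 for Pold1 and -0.46 ± 0.19 for Pold2, did not pass (edgeR adjusted p = 0.0892 and 0.112). Without DCKO library 4 both fell, Pold1 with a log2 fold change of -0.98 (adjusted p = 0.00885) and Pold2 with -0.66 (adjusted p = 0.0154), whereas with a correction for GC content the values in all libraries were -0.26 (adjusted p = 0.145) and -0.15 (adjusted p = 0.546).

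None of the other polymerase genes passed the test between DCKO and control DN3b. Pole2, a subunit of polymerase epsilon, had the highest log2 fold change in this role (0.37 ± 0.14, edgeR adjusted p = 0.0839) and separated the groups, averaging 75.2 ± 6.13 CPM in DCKO and 58.2 ± 8.73 CPM in control DN3b (SD, n = 4 each). Pola2, of polymerase alpha, had a log2 fold change of -0.36 ± 0.15 (adjusted p = 0.104). Pola1, Prim1, Pold3 and Pole ranged from -0.21 for Pole to 0.15 for Prim1. Over control DN3a, these 4 rose 1.69-fold (Pold3) to 2.82-fold (Prim1) in DCKO and 1.89-fold (Pold3) to 2.94-fold (Pole) in control DN3b.

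Pcna, the sliding clamp, rose the most among the clamp and loader genes. It had 836, 768, 747 and 801 CPM in DCKO, against 551, 647, 644 and 958 CPM in control DN3b and 152, 194, 204 and 327 CPM in control DN3a. The DCKO libraries lay close together, inside the wide control DN3b range. Pcna rose 3.60-fold in DCKO and 3.19-fold in control DN3b over control DN3a (edgeR adjusted p = 2.1e-05 and 8.3e-05), and per kilobase it was the most abundant of the 41 genes in DCKO (328 CPM per kb) and in control DN3b (292 CPM per kb), while Mcm6 was in control DN3a (132 CPM per kb). Its processed copies Pcna-ps1 and Pcna-ps2 could share reads with it. Rfc1, the large subunit of the clamp loader, had 300, 292, 296 and 266 CPM in DCKO, against 201, 279, 292 and 313 CPM in control DN3b and 105, 143, 160 and 180 CPM in control DN3a. Rfc1 rose 1.97-fold in DCKO and 1.85-fold in control DN3b (adjusted p = 0.00024 and 0.00069). The small loader subunits Rfc2, Rfc3, Rfc4 and Rfc5 rose 1.81-fold (Rfc2) to 2.76-fold (Rfc4) in DCKO and 2.01-fold (Rfc3) to 2.90-fold (Rfc4) in control DN3b. None of the 6 genes passed the test between DCKO and control DN3b.

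Fen1, the flap nuclease, had 236, 195, 201 and 235 CPM in DCKO, against 193, 199, 247 and 238 CPM in control DN3b and 59.6, 56.0, 80.7 and 90.2 CPM in control DN3a. Lig1, the ligase that seals Okazaki fragments, had 151, 190, 225 and 213 CPM in DCKO, against 148, 255, 303 and 315 CPM in control DN3b and 45.1, 60.3, 87.6 and 121 CPM in control DN3a. For both genes DCKO and control DN3b overlapped above control DN3a. Fen1 rose 3.03-fold in DCKO and 3.06-fold in control DN3b over control DN3a (edgeR adjusted p = 6.6e-06 and 2.6e-05), and Lig1 rose 2.48-fold and 3.25-fold (adjusted p = 0.0018 and 0.00047). Exons of Tmem258 and Gm10143 on the opposite strand overlap 2039 of the 2422 exonic bases of Fen1. Slbp, whose product binds replication-dependent histone mRNA, had 529, 442, 483 and 405 CPM in DCKO, against 263, 348, 350 and 409 CPM in control DN3b and 103, 144, 149 and 190 CPM in control DN3a. DCKO library 4 and control DN3b library 4 nearly coincided, and otherwise DCKO was higher. Slbp rose 3.17-fold in DCKO and 2.33-fold in control DN3b over control DN3a (adjusted p = 1.2e-05 and 0.00015), and the log2 fold change of 0.44 ± 0.17 in DCKO over control DN3b did not pass (adjusted p = 0.0953).

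Within the control groups the libraries differed for these genes together. Control DN3b library 1 was the lowest of its group for 36 of 41 genes and library 4 the highest for 34, and control DN3a library 1 was the lowest for 28 and library 4 the highest for 36. The 20 mitosis genes followed the same order within control DN3a, with a mean log2 CPM of 3.96 in library 1 and 6.02 in library 4. All 20 mitosis genes rose over control DN3a in DCKO (median log2 fold change 2.13) and in control DN3b (2.10), above the medians of the replication genes. Of all tested genes, 30.7% and 27.4% rose in these comparisons. Between DCKO and control DN3b 0 of 20 passed, where their median was 0.12 and 18.9% of all tested genes were called. There 0 of the 20 had an unadjusted p under 0.05, against 33.8% of all tested genes.

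GC content moved with the differences between groups. Across the 41 genes, Pearson's r between transcript GC content and the log2 fold change of DCKO over control DN3b was -0.64, against -0.24 over 13825 genes; these are descriptions over genes measured in the same libraries. For control DN3b over control DN3a r was 0.54 over the 41 genes and 0.15 over all, and for DCKO over control DN3a 0.14 and -0.03. In DCKO over control DN3b, the 14 genes with 50% GC or more had a median of -0.22 and 11 of them were negative, whereas the 18 genes between 45% and 50% had a median of 0.17 and the 9 below 45% a median of 0.15. DCKO library 4 minus the mean of DCKO libraries 1 to 3, a difference within 1 group, had r = 0.89 with GC content over the 41 genes and 0.39 over all. Pold1, Cdt1 and Pold2, the lowest values in the comparison, had the 3 highest GC contents, at 60.7%, 58.8% and 58.8%, and Orc4 the lowest, at 36.8%. With a GC correction added after the data had been seen, Cdc6 (log2 0.71, edgeR adjusted p = 0.0432) and Orc6 (0.55, adjusted p = 0.0149) still rose in DCKO, Orc4 did not, and Orc5 fell (-0.38, adjusted p = 0.0104). With it, Pold1, Cdt1 and Pold2 had log2 fold changes of -0.26, -0.08 and -0.15, against -0.67, -0.41 and -0.46 without it.

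**Figure D5:**
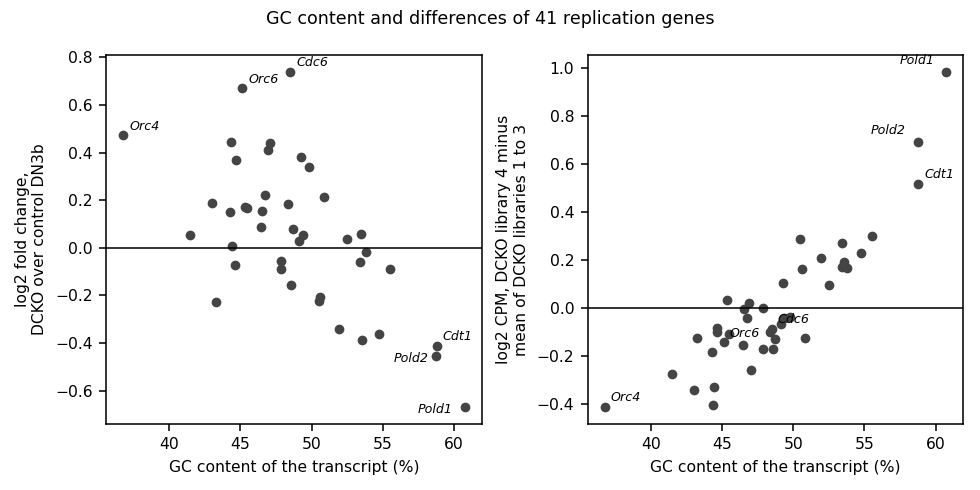
GC content of the transcript of each of the 41 genes (horizontal axis, percent) against its log2 fold change in DCKO over control DN3b (left) and against log2 CPM of DCKO library 4 minus the mean of DCKO libraries 1 to 3 (right). The genes slope down on the left (r = -0.64) and up on the right (r = 0.89).

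Because the deleted proteins bind AU-rich elements, 3′ UTRs were searched for TATTTAT and for the shorter ATTTA, which every TATTTAT contains, on the transcript strand. TATTTAT stood in 6 of the 41 genes (14.6%), against 28% of 11683 tested genes with an annotated 3′ UTR, and ATTTA in 24 (58.5%), against 67.1%. The median 3′ UTR was 463 bases in the 41 genes and 1017 bases in the tested genes. Orc4 held 9 ATTTA matches and no TATTTAT, and Orc6 held neither. The windows around the TATTTAT matches, in capitals, are shown because Cdc6 is among them and the others are not called between DCKO and control DN3b.
Cdc6, chromosome 11: gattgtgaataTATTTATtttcaagtttc
Mcm2, chromosome 6: cattaaatgacTATTTATtcttctgcccc
Mcm5, chromosome 8: ctccagggcttTATTTATagcaagtgggc
Orc1, chromosome 4: ttattttccatTATTTATtttgctttttc
Cdc7, chromosome 5: agtgttacatgTATTTATatttggagcca
Cdc45, chromosome 16: ctccttttcctTATTTATatttcctggcc
The log2 fold changes of these genes in DCKO over control DN3b were 0.74 for Cdc6, -0.09 for Mcm2, -0.34 for Mcm5, 0.22 for Orc1, 0.15 for Cdc7 and 0.38 for Cdc45, and only that of Cdc6 passed the test.

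A further 36 replication factors outside the 41 were read from the same fit. In DCKO over control DN3a, 32 of 36 rose and 1 fell (median log2 fold change 1.23), where 30.7% of all tested genes rose and 29.5% fell. In control DN3b over control DN3a, 33 rose and 2 fell (median 1.06), where 27.4% of all tested genes rose and 25.2% fell. Pold4, the smallest subunit of polymerase delta, was the factor that fell in DCKO over control DN3a, and Pold4 and Mcm9, a relative of the MCM2-7 genes, were those that fell in control DN3b. In DCKO over control DN3b, 4 rose (Rpa3, Mtbp, Tipin and Pole4) and 1 fell (Rnaseh2c), with a median of 0.10. The 11.1% that rose lay near the 10.3% of all tested genes called higher, and 2.78% fell against 8.58% called lower. Rpa3, the small subunit of the single-strand binding protein, rose by a log2 of 0.72 ± 0.13 (edgeR adjusted p = 0.00274), Mtbp, which helps to fire origins, by 0.79 ± 0.15 (adjusted p = 0.00323), and Tipin, a fork protection protein, by 0.70 ± 0.18 (adjusted p = 0.0174). Rnaseh2c, a subunit of ribonuclease H2, fell by 0.82 on the log2 scale (SE 0.22, adjusted p = 0.0234). Over control DN3a, the smallest p-values in DCKO belonged to Rpa3 (log2 1.66), Mtbp (1.87), Chaf1b (1.14), a chromatin assembly subunit, and Tipin (2.02), and in control DN3b to Chaf1b (1.04), the helicase gene Recql4 (2.001), Rpa2 (1.19) and Chaf1a (1.55).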

How the data were processed

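Per the labels, ribosomal RNA was removed from the total RNA of the sorted cells and a stranded kit was used. Tools listed in the submitters' processing notes are HTSeq, TopHat2 2.0.12, DESeq2 1.6.3 and Trim Galore, with GRCm38 as the genome build. The release of the annotation, and how strand was treated in counting, were not given in the sources used here. The authors deposited raw read counts per gene for 12 libraries, and tables of their own comparisons with log2 fold changes and adjusted p-values.

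Counts were tested as deposited with edgeR 4.0.16 in R 4.3.3 (filterByExpr with a minimum count of 10, TMM scaling, quasi-likelihood test, two-sided, Benjamini-Hochberg adjustment over 13944 genes, threshold 0.05), with group as the only term, all 12 libraries in 1 fit and 9 residual degrees of freedom. Errors of log2 fold changes are standard errors; levels are TMM-scaled CPM. Of the 43629 gene IDs, 42462 had a symbol in GENCODE M21 (GRCm38), whose merged exons gave lengths. The procedure was tested on simulated data. Alternatives used DESeq2 1.42.0, limma 3.58.1, other scalings and filters, a replicate block, a GC correction and the removal of libraries. Gmnn minus Cdt1 was tested by exact permutation.

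Members and lists were chosen with earlier results of these data known. Values in every library are given for members called between DCKO and control DN3b, members not called up over control DN3a, and the members with the largest and smallest absolute change between control stages in each role; Cdt1, Pold1 and the deleted genes were added. Same-numbered control DN3b and control DN3a libraries deviated from their group means together (correlations of 0.44, 0.56, 0.35 and 0.52), so the number pairs them; DCKO libraries were not paired with either (correlations from -0.26 to 0.12). The labels do not say whether replicates are separate mice, so p-values measure the spread between libraries. At 28479157 counts or more per library, counting error was small beside that spread, and PCR copies were not separated from independent molecules. Exons of 16 members overlap another gene, and without the strand setting their reads cannot be told apart. Among them are Orc6 (171 bases, Vps35), Orc4 (582 bases, Acvr2a and Mbd5) and Orc2 (1150 of 3857 bases, Nif3l1), each overlapped on the opposite strand.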

Additional observations from a re-analysis of the deposited data

Results flagged for a closer look

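In each group of 4 libraries, the gap between the most extreme library and its neighbour was set against the group's range (Dixon's critical value 0.829) for each of the 41 genes. Of 123 such checks 5 stood out, where chance gives about 1 in 20. DCKO library 4 was high for Pold1 (200.1 CPM) and Pold2 (102.7 CPM), both rich in GC, and low for Pola1 (270 CPM). DCKO library 1 was high for Rfc3 (132.1 CPM), and control DN3a library 1 was low for Cdc7 (52.63 CPM). Whether the GC content of the transcripts accounts for these values was not tested.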

How the results depend on the processing

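The 40 genes that rose in DCKO over control DN3a and the 38 that rose in control DN3b over control DN3a kept their direction in all 24 alternatives, and 38 to 40 and 38 to 41 of the 41 passed. Of the values that had not passed, Orc5 in DCKO and Orc3 and Orc4 in control DN3b changed sign under some alternatives, Orc4 to 0.21 with a call (adjusted p = 0.0216) under a GC correction with the replicate block. With upper quartile scaling the median log2 fold change over all tested genes was -0.10 in DCKO over control DN3b, -0.26 in DCKO over control DN3a and -0.17 in control DN3b over control DN3a. Between DCKO and control DN3b, the 3 genes that rose became 0 with the replicate block, 0 without DCKO libraries 1 and 2 together, 1 with the GC correction and block, and 0 to 5 when 1 library was left out. The 0 that fell became 1 with upper quartile scaling, 1 with the GC correction, 1 without both control libraries numbered 1, and 0 to 3 with 1 library left out. Cdc6 passed in 13, Orc6 in 19 and Orc4 in 15 of 24 alternatives. DCKO libraries correlated best with other numbers than their own. Of the other replication factors, the 4 that rose became 2 with the block, 1 without DCKO libraries 1 and 2, and 2 to 6 with 1 library left out. The 1 that fell became 3 with upper quartile scaling, DESeq2 or the stricter filter, 2 with limma-voom, with only the 8 libraries compared or without both control libraries numbered 1, 0 without DCKO libraries 1 and 2, and 0 to 4 with 1 library left out. Those that fell over control DN3a numbered 2 in DCKO with upper quartile scaling, and 1 to 2 in control DN3b with 1 library left out. Gmnn minus Cdt1 between DCKO and control DN3b was 0.57 to 0.93 with 1 library left out. It was 0.80 with the block as paired sign flips (exact p = 0.125). That p is the smallest that 4 pairs allow, so this test could not pass the threshold. Between DCKO and control DN3a the difference was 0.52 to 0.80, and between control DN3b and control DN3a -0.275 to 0.0943, the last a reversal without control DN3b library 1. The GC correction and the removal of both control libraries numbered 1 were chosen after seeing the data. The cause of these shifts was not tested. Orc5, the gene with the lowest level in DCKO, held 3270 counts over the 4 DCKO libraries; the effect of depth was not tested.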
